A study of Mus musculus with 2 samples.

Results

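The mitogen-activated protein (MAP) kinase cascade and the dual-specificity phosphatases, some of which oppose it, were examined for STAT5 binding in leukemic B cell progenitors. The genes were all protein-coding genes of the RefSeq annotation (GRCm38.p6) whose symbol starts with Mapk, Map2k, Map3k, Map4k or Dusp and a digit, 73 of the 21779 protein-coding genes kept. They comprised 43 cascade kinases (5 MAP4K, 18 MAP3K, 7 MAP2K and 13 MAPK genes), 24 Dusp genes and 6 genes of interacting proteins that carry the same prefixes. A gene was counted as having a peak when the midpoint of a STAT5 peak fell within its limits or no farther than 20 kb from one of its ends.

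The study used 1 STAT5 chromatin immunoprecipitation library and 1 input library, and the only values were the positions of 5908 peaks on mouse build mm10, 5901 of them on assembled chromosomes. Both libraries came from lymph nodes of a C57BL/6 mouse with B cell progenitor leukemia, genotype Stat5b-CA and Blnk+/-, that is, with a transgene for constitutively active STAT5b and with the adaptor gene Blnk mutated on 1 allele. Before fixation in 1% formaldehyde the cells were exposed to murine IL7 at 10 ng/mL, for 30 minutes, and the antibody was one against STAT5. The promoter of the transgene and the age of the animal were not stated in the labels. There was no replicate and no group without the transgene, without IL7 or without leukemia, so no difference between conditions could be measured. The list holds no expression values, so neither the cell type nor the expression of any gene could be checked, and read depth is unknown.

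MAP kinase cascades relay signals through kinases that phosphorylate one another in series: MAP4K enzymes act on MAP3K enzymes, these on MAP2K enzymes, and these on the MAP kinases ERK, JNK and p38. Dual-specificity phosphatases of the MAP kinase class remove the phosphates from both the tyrosine and the threonine of the activation loop, and several are themselves induced by the pathway as feedback. In B cell progenitors, ERK signalling is driven by the pre-B cell receptor, in which Blnk is an adaptor, while the IL7 receptor signals mainly through STAT5.

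The member promoters that a STAT5 peak touched are shown first, since sequence was at hand for promoter windows only. For 2 of them, Map4k2 and Mapk14, the midpoint of the peak lay inside a neighbouring gene and nearer to an end of that gene. RefSeq windows from 250 bases before to 50 bases after a transcription start were at hand for 55 of the 73 genes, 70 windows in all. A peak overlapped 4 of these (5.71%), against 738 of 32851 windows of all genes (2.25%). The 4 windows follow, each 300 bases on the + strand of GRCm38.p6, 5′ to 3′, with the bases covered by the peak in capitals. They lay at chr7:28982604-28982903 (Map4k1), chr19:6340910-6341209 (Map4k2), chr4:133240568-133240867 (Map3k6) and chr17:28691092-28691391 (Mapk14).
Map4k1: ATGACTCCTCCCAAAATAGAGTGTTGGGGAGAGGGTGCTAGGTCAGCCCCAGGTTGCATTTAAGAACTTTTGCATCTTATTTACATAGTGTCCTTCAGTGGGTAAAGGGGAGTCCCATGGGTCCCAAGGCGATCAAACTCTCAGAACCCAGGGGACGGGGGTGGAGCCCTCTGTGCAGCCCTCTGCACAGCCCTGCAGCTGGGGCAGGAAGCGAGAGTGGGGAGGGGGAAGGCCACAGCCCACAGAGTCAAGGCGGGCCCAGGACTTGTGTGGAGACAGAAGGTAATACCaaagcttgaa
Map4k2: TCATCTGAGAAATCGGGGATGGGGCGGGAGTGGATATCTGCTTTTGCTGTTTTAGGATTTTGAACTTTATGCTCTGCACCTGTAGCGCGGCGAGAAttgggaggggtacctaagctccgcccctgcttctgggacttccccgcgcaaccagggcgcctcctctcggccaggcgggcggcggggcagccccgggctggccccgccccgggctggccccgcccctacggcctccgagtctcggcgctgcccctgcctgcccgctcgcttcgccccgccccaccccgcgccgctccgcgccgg
Map3k6: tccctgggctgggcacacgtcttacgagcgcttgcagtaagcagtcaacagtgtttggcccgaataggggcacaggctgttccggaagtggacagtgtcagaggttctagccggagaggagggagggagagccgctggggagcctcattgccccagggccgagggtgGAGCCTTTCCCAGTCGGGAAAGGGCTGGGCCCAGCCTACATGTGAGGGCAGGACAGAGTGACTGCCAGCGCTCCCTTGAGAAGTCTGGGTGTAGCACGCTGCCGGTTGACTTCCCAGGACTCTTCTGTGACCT
Mapk14: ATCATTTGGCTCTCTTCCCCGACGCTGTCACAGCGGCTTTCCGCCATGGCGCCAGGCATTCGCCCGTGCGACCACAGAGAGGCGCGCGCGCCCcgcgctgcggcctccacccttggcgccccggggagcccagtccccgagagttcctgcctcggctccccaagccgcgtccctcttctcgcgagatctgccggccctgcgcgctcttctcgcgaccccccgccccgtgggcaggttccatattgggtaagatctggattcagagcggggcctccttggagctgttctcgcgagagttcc
The peak covered 290 bases of the Map4k1 window, 133 of the Map3k6 window, 96 of the Map4k2 window and 93 of the Mapk14 window. In the Map4k2 and Mapk14 windows the covered bases were those farthest upstream, and in the Map3k6 window they ran over the start itself.

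These windows were searched for TTCNNNGAA, the palindrome that STAT5 dimers are known to bind, which reads the same on both strands. None of the 4 windows held it. Of all windows 8.30% held the palindrome, of the 738 windows touched by a peak 38.6% did, and of the 70 windows of members 3 did (4.29%). Those 3 windows, of Map2k4, Dusp14 and a second start of Mapk14, overlapped no peak. The counts for members, here and above, rest on 3 or 4 windows. No interval was computed for them and they were not tested, so no difference from all windows is drawn from them. The 45 bases around each match are shown with the palindrome in capitals, to set them beside the windows above.
Map2k4: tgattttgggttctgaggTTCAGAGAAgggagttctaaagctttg
Dusp14: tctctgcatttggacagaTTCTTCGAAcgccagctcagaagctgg
Mapk14, second start: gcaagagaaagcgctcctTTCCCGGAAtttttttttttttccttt
The palindrome began 221, 200 and 232 bases before the respective starts. The bases of the peaks beyond these windows were not searched, so the search covers only part of the sequence under the peaks.

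As a whole the 73 genes carried STAT5 peaks about as often as other genes of their length. A peak was counted for 20 of them (27.4%, exact Clopper-Pearson 95% interval 17.6 to 39.1), against 21.6% of all protein-coding genes. Longer genes offer more room for a peak, so each gene was set beside the 200 protein-coding genes closest in length. On average 24% of these had a peak, which corresponds to 17.5 of 73 genes, and the ratio of observed to length-matched share was 1.14. Within the set the peaks were uneven: 9 of the 73 genes had 2 or more peaks (6.70% of all protein-coding genes did) and 4 had 3 or more (2.48% of all). All 4 were MAP3K genes. These counts were not matched for length. Map3k1, Map3k5 and Map3k20 are 71.8, 209 and 157 kb long and Map3k6 is 15.0 kb long, against a median of 17.2 kb for all genes. No peak was shared between members, so the 34 counts stood for 34 distinct peaks. Intervals cover counting error only, and no test was made over genes of this 1 list.

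**Figure D1:**
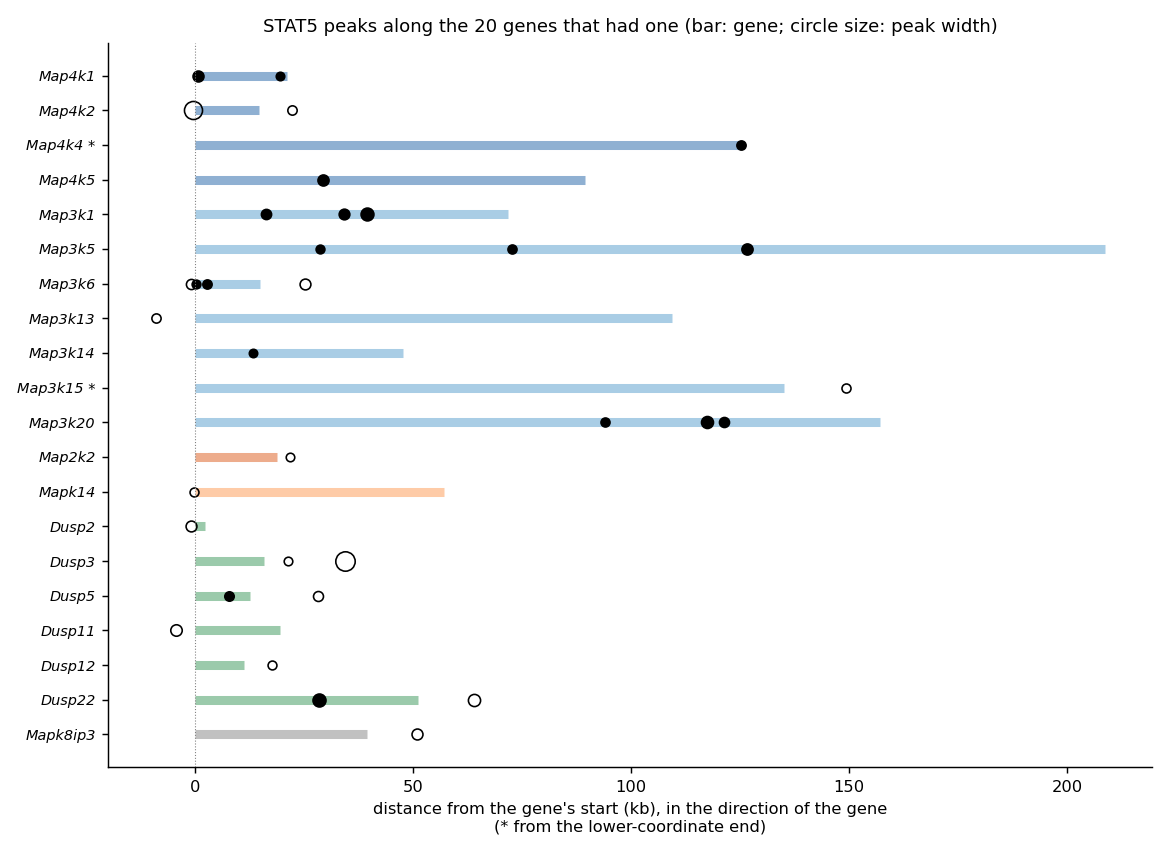
Positions of the 34 STAT5 peaks along the 20 genes that had one, in kb from the start of the gene in its own direction (from the lower-coordinate end for Map4k4 and Map3k15). Bars are genes coloured by tier, filled circles are peaks inside the gene, open circles peaks outside it, and circle size follows peak width from 198 to 929 bp. The peaks of Map3k1, Map3k5 and Map3k20 all lie within the gene bodies.

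At the top of the cascade, 4 of the 5 MAP4K genes had a peak (80%, interval 28.4 to 99.5), where 28.5% of genes of the same length had one. These kinases link receptors and adaptors to the JNK branch. Map4k1 encodes HPK1, a blood cell kinase that binds BLNK and restrains antigen receptor signalling. It had 2 peaks inside the gene. The first (chromosome 7, 28982527 to 28982893, 367 bp wide) lay 660 bp past the first annotated start and 144 bp before the second start, whose window is shown above. The second (29001364 to 29001568) lay 91.5% of the way along the gene. No other protein-coding gene held either peak.

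Map4k2 encodes germinal center kinase. Its first peak (chromosome 19, 6340166 to 6341005) was 840 bp wide, the widest at any cascade kinase, and stood at place 142 of the deposited order, for which no sorting key was stated. It lay 405 bp before Map4k2 but inside the neighbour Men1, which encodes the tumor suppressor menin, and was closer to an end of Men1 (309 bp). The second peak of Map4k2 lay 7689 bp beyond its end and 365 bp from Sf1. For both peaks of Map4k2 the nearest gene end was thus that of a neighbour.

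Map4k5 had a single peak 29429 bp inside the gene (chromosome 12, 69863547 to 69863922), place 420 of the order. Map4k4 had a single peak 224 bp inside its higher-coordinate end (chromosome 1, 40025961 to 40026212). Map4k3 was the exception, with its nearest peak 467 kb away.

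MAP3K genes, the most diverse tier, had a peak in 7 of 18 cases (38.9%, 17.3 to 64.3), and genes of like length had one in 27.6%. They held 16 of the 24 peaks of cascade kinases, and 12 of these 16 lay inside the gene. Map3k1 encodes MEKK1, which activates the JNK branch. It had 3 peaks in its body (chromosome 13): 111778621 to 111779115, 111783985 to 111784334 and 111801739 to 111802056. The first 2 were 5291 bp apart by their midpoints and stood at places 575 and 709 of the order, and the third stood at place 4280.

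Map3k5 and Map3k6 encode ASK1 and ASK2, kinases that respond to oxidative stress and can trigger apoptosis. Map3k5 had 3 peaks spread over its 209 kb (chromosome 10), at 13.8%, 34.9% and 60.7% of its length. The last of them (20060596 to 20060976, place 793) was the widest of the 3, at 381 bp. Map3k6, only 15.0 kb long, had 4 peaks, the most of any member (chromosome 4). In order of position they spanned 133236968 to 133237282, 133238021 to 133238240, 133240735 to 133240988 and 133263107 to 133263465. The first 3 crowded around the front of the gene, 1005 and 2731 bp apart, and the third lay 43 bp past the start shown above. The fourth lay 10357 bp beyond the gene and 199 bp from Sytl1.

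Map3k20 encodes ZAK, a sensor of stalled ribosomes. Its 3 peaks lay in the gene on chromosome 2 (72379503 to 72379743, 72402808 to 72403244 and 72406792 to 72407099), at 59.9%, 74.8% and 77.3% of its length. Map3k14 encodes NIK, the kinase of the noncanonical NF-kB pathway, and had 1 peak inside, the narrowest at any member at 198 bp (chromosome 11, 103253945 to 103254142). Map3k13 had 1 peak 8953 bp before the gene. Map3k15 on chromosome X had 1, 14229 bp outside the gene and inside Pdha1, 855 bp from an end of that gene.

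No peak was counted for the other 11 MAP3K genes: Map3k2, Map3k3, Map3k4, Map3k7, Map3k8, Map3k9, Map3k10, Map3k11, Map3k12, Map3k19 and Map3k21. Map3k7 encodes TAK1, which serves Toll-like and antigen receptors, and its nearest peak was 142 kb away. Map3k8 encodes TPL2, which feeds the ERK branch in immune cells, and its nearest peak was 28.1 kb away. Map3k4 fell just outside the 20 kb limit, at 21707 bp.

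**Figure D2:**
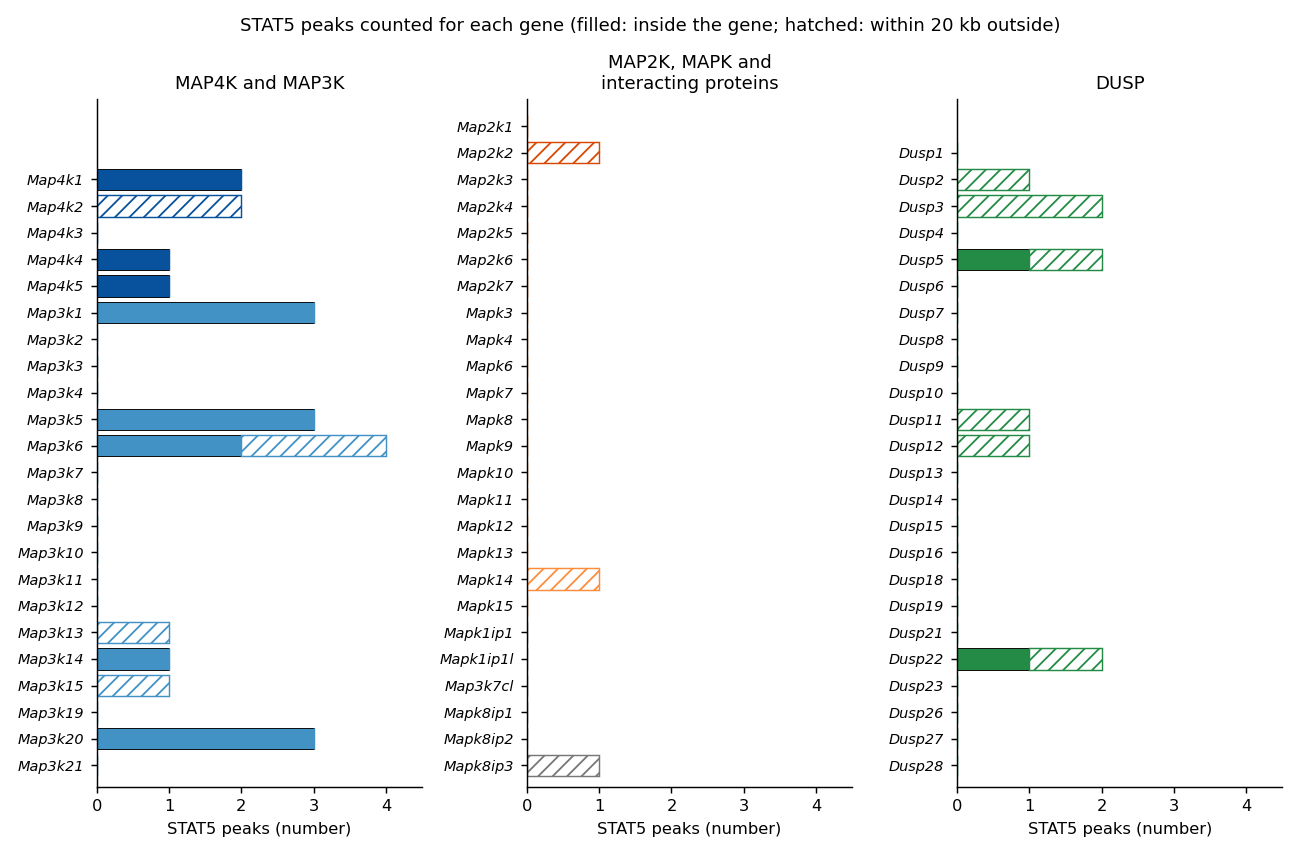
STAT5 peaks counted for 72 of the 73 genes, as horizontal bars in number of peaks. Filled bars are peaks inside the gene, hatched bars peaks within 20 kb outside it, and a tick at 0 marks a gene without a counted peak. Filled bars stand mostly in the left panel, where the MAP4K and MAP3K genes have 16 of their 22 peaks inside.

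The 2 lower tiers had 2 counted peaks in all, and the interval of each tier includes its length-matched share. Over all protein-coding genes the nearest peak lay at a median of 118 kb. Of the 7 MAP2K genes 1 had a peak (14.3%, 0.361 to 57.9), and genes of like length had one in 29.4%. It was Map2k2, which encodes the ERK kinase MEK2, with a 207 bp peak 3051 bp beyond its end (chromosome 10, 81127645 to 81127851). Its partner Map2k1, which encodes MEK1, had its nearest peak 141 kb away. Map2k3 and Map2k6, which activate p38, had theirs at 156 and 982 kb. Map2k4 and Map2k7, which activate JNK, had theirs at 1490 and 527 kb. Map2k5, which activates ERK5, came closest of those without a counted peak, at 39.0 kb.

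Of the 13 MAPK genes 1 had a peak (7.69%, 0.195 to 36.0), where 24.3% of genes of like length had one. It was Mapk14, which encodes p38 alpha, with a 231 bp peak 273 bp before the start (chromosome 17, 28690954 to 28691184). This peak lay inside the neighbour Slc26a8, 204 bp from an end of that gene. Mapk3, which encodes the kinase ERK1, had its nearest peak at 163 kb. The JNK genes Mapk8, Mapk9 and Mapk10 had theirs at 188, 81.8 and 410 kb. Mapk6, which encodes the atypical kinase ERK3, came nearest to the limit, at 24.1 kb. The remaining p38 genes Mapk11, Mapk12 and Mapk13 had theirs at 206, 214 and 78.2 kb. Mapk4, Mapk7 and Mapk15 had no counted peak either, at 714, 103 and 63.9 kb.

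**Figure D3:**
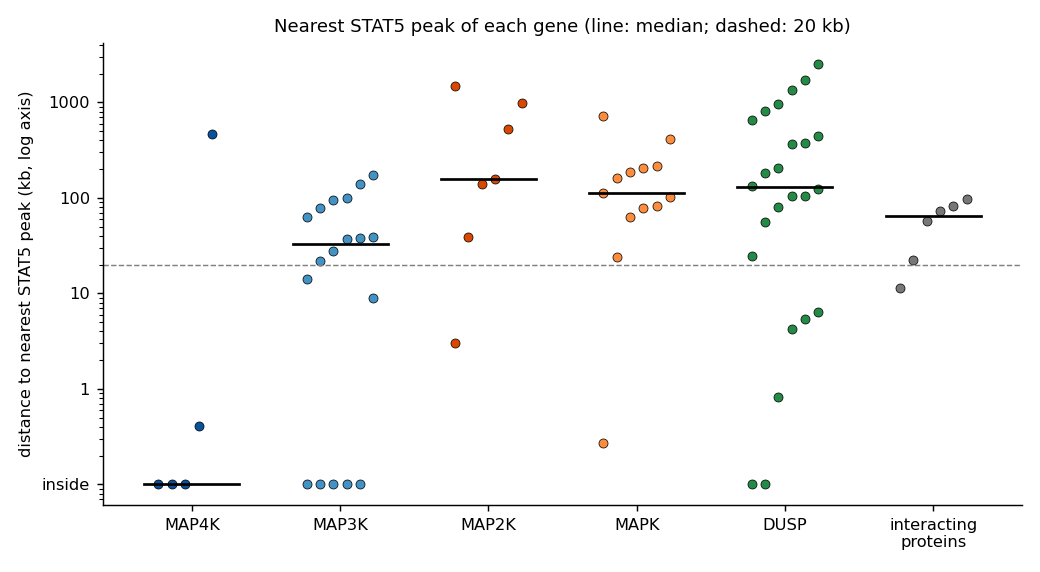
Distance from each of the 73 genes to its nearest STAT5 peak midpoint, in kb on a log axis, with genes that hold a peak drawn at the bottom. Horizontal lines are tier medians and the dashed line is the 20 kb limit. The medians run from inside the gene for MAP4K and 32.6 kb for MAP3K to 156 kb for MAP2K, 113 kb for MAPK and 129 kb for Dusp genes. The median over all protein-coding genes, not drawn and not matched for length, was 118 kb.

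Set side by side, MAP4K and MAP3K genes together had a peak in 11 of 23 cases (47.8%, 26.8 to 69.4) and MAP2K and MAPK genes in 2 of 20 (10.0%, 1.23 to 31.7). Genes of the same length had one in 27.8% and 26.1% of cases, so the ratios to the length-matched share were 1.72 and 0.383. The 2 intervals overlap between 26.8% and 31.7%, the tiers were joined in pairs after their counts were seen, and the difference was not tested. Per 100 kb of gene and flank, the upper tiers held 0.853 peaks, the lower tiers 0.0952 and all protein-coding genes 0.374. Of the peaks counted for the upper tiers 72.7% lay inside the gene, where 44.0% of all pairs of gene and peak did. These 2 shares are not matched for length, and the upper-tier genes were longer (median 66.2 kb, against 17.2 kb for all genes). Neither of the 2 peaks of the lower tiers was inside its gene.

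Dusp genes had a peak in 6 of 24 cases (25%, 9.77 to 46.7), where length alone gave 19.2%, so that the ratio was 1.30. Their share lay between those of the upper and lower kinase tiers, and their interval overlaps both. They are short genes, with a median length of 11.8 kb against 57.1 kb for the cascade kinases, and 7 of their 9 peaks lay outside the gene. Per 100 kb of gene and flank they held 0.660 peaks.

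Among the 10 classical MAP kinase phosphatases, 2 had a peak (20%, 2.52 to 55.6; length-matched 19.2%). Both encode nuclear enzymes. Dusp2, known from activated lymphocytes, had a 359 bp peak 823 bp before its start (chromosome 2, 127335157 to 127335515). The nearest end of a protein-coding gene was that of Dusp2, and the peak lay inside Gm46762, which is not protein-coding. Dusp5, a phosphatase specific for ERK, had 1 peak inside the gene at 61.8% of its length (chromosome 19, 53536840 to 53537105) and 1 that lay 15567 bp beyond its end, also nearest to itself. The other nuclear phosphatase genes, Dusp1 and Dusp4, had their nearest peaks at 207 and 81.1 kb. The cytoplasmic ERK phosphatase genes Dusp6, Dusp7 and Dusp9 had theirs at 184, 447 and 1740 kb. Dusp8, Dusp10 and Dusp16, whose products act on JNK and p38, had theirs at 367, 660 and 56.3 kb.

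Of the 14 atypical phosphatase genes 4 had a peak (28.6%, 8.39 to 58.1; length-matched 19.2%). Dusp22, which encodes a regulator of JNK and of T cell receptor signalling, had a 504 bp peak inside the gene (chromosome 13, 30688253 to 30688756) and a 449 bp peak 12902 bp beyond its end (30723910 to 30724358, place 990). Dusp3, which encodes VHR, had 2 peaks 5395 and 18514 bp beyond its end. The farther of these was the widest at any member, at 929 bp (chromosome 11, 101952163 to 101953091, place 482), but both had an end of Sost, which encodes sclerostin, as the nearest gene end. Dusp11, which encodes an RNA phosphatase, had 1 peak 4267 bp before the gene (chromosome 6, 85965799 to 85966199). The peak of Dusp12, 6430 bp beyond its end, lay inside Atf6. The other 10 (Dusp13, Dusp14, Dusp15, Dusp18, Dusp19, Dusp21, Dusp23, Dusp26, Dusp27 and Dusp28) had none.

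**Figure D4:**
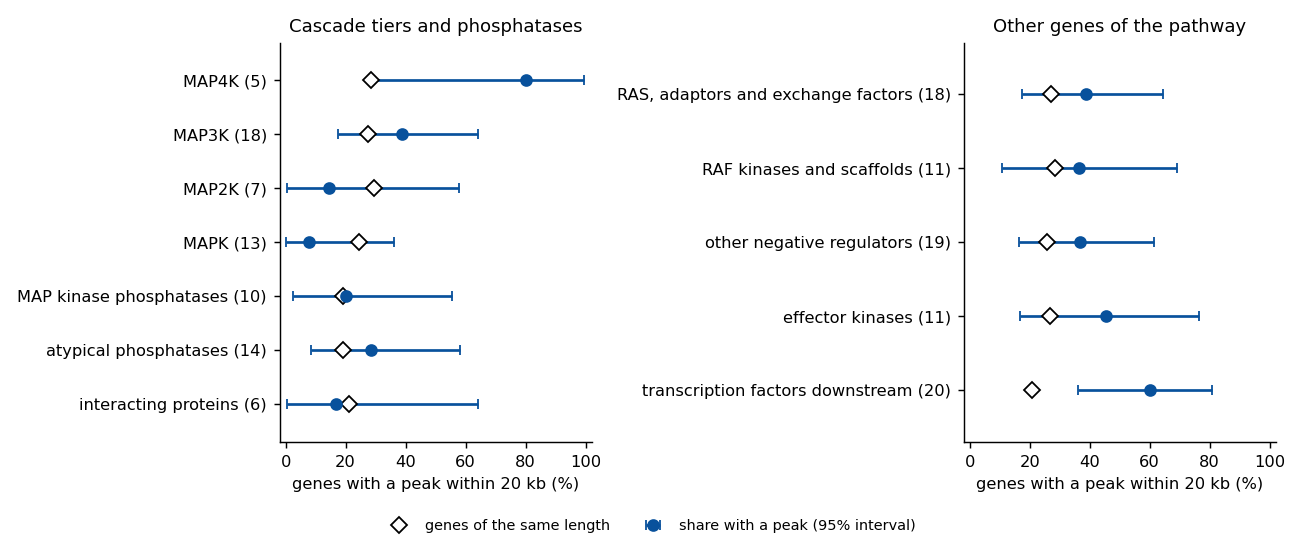
Share of genes with a STAT5 peak inside or within 20 kb, in percent, for the cascade tiers and phosphatase classes (left) and for other genes of the pathway (right), with the number of genes in parentheses. Circles are observed shares with exact 95% intervals, and open diamonds are the mean share among the 200 genes nearest in length to each gene. Among the 12 sets drawn, the diamond lies outside the interval for the downstream transcription factors alone (20.8% against 36.1 to 80.9), and for MAP4K genes it sits at the lower bound. The lists on the right were chosen with earlier results of these data known, so this is a description and not a test.

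Of the 6 genes of interacting proteins, Mapk8ip3, which encodes the scaffold JIP3, had 1 peak 11341 bp beyond its end (chromosome 17, 24885982 to 24886348). It lay inside Nubp2 and Spsb3, 183 bp from an end of Spsb3. Mapk1ip1, Mapk1ip1l, Map3k7cl, Mapk8ip1 and Mapk8ip2 had none.

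Peaks within 1 kb of either end of a gene were found at 6 members (8.22%, 3.08 to 17.0), against 4.76% of all protein-coding genes. They were Map4k1, Map4k2, Map4k4, Map3k6, Mapk14 and Dusp2. Map3k6 had 2 such peaks. For 24 of the 34 peaks the nearest end of any protein-coding gene was that of the member, and for 10 it was that of another gene. Nearest gene ends, here and above, refer to protein-coding genes only. Some peaks also lay inside genes that are not protein-coding. These were the first 2 peaks of Map3k6 (Fcnc-ps), the second of Map4k2 (Gm14966) and the peak of Map3k15 (Gm39547). The peak of Dusp2 (Gm46762) and the wider one of Dusp3 (4930417O22Rik) did so too. When each peak was given only to the gene that holds it or whose end was nearest, 14 members had a peak (19.2%), against 14.0% of all protein-coding genes and 16.4% of genes of like length. They comprised 9 of the upper tiers (39.1%, like length 20.8%) and 1 of the lower tiers (5.0%, like length 18.3%). The other 4 were Dusp genes (16.7%, like length 11.2%). Map4k2, Map3k15, Mapk14, Dusp3, Dusp12 and Mapk8ip3 then had none.

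The peaks themselves had widths and places near those of the whole list. The median width was 305.5 bp (range 198 to 929 bp), and 295 bp over all peaks. The first 2954 places alone gave a peak to 15.1% of members (12.2% of all protein-coding genes, 13.6% of genes of like length), and the peaks wider than the median to 17.8% (12.2% of all, 13.4% of like length). Of the 34, 16 stood in the first 2954 places of the deposited order (47.1%, 29.8 to 64.9), against 50% of all. The nearest other peak lay at a median of 22.7 kb, against 30.4 kb for all peaks, and 5 had another within 5 kb (14.7%, against 24% of all), 2 of them at Map3k20 and 3 at Map3k6.

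The window around the gene changed the counts, while the share stayed highest in the upper kinase tiers, then in Dusp genes, then in the lower tiers at each flank tried (0, 5, 20 and 50 kb). Each wider window contains the narrower ones, so these flanks are not separate observations. With no flank 10 members held a peak (13.7%), against 9.85% of all protein-coding genes and 11.9% of genes of like length. Of these 10, 8 were MAP4K or MAP3K genes (34.8% of the upper tiers, length-matched 16.3%). With 5 kb the count was 15 (20.5%, against 14.3% of all and 16.7% of like length). With 50 kb it was 29 (39.7%, against 33.0% of all and 36.1% of like length). At 50 kb 16 of the 23 upper-tier genes had a peak, 7 of the 24 Dusp genes and 4 of the 20 lower-tier genes.

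**Figure D5:**
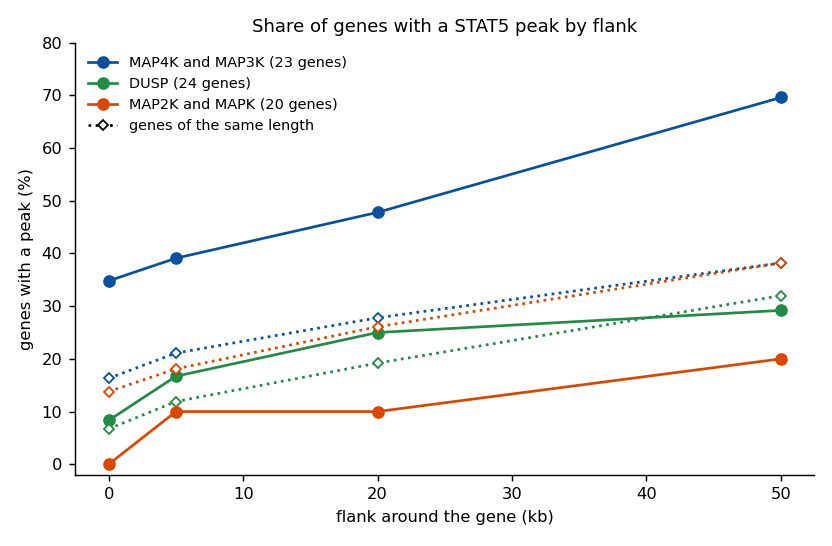
Share of genes with a STAT5 peak, in percent, against the flank around the gene in kb, for the 23 MAP4K and MAP3K genes, the 24 Dusp genes and the 20 MAP2K and MAPK genes. Solid lines are observed shares and dotted lines the mean share among genes of the same length. The upper tiers rise from 34.8% inside the gene to 69.6% at 50 kb and stay above their dotted line, while the lower tiers go from 0% to 20% and stay below theirs.

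Other genes of the pathway were read from 5 lists of 79 genes in all, of which 35 had a peak (44.3%, 33.1 to 55.9), where length alone gave 25.3%. Of 18 genes of RAS proteins, adaptors and exchange factors, 7 had a peak (38.9%; length-matched 27.2%). Rasgrp1, which activates RAS downstream of antigen receptors, had 3, one of them 153 bp outside the gene at place 54 of the order. Rasgrp2 had 3, and Rasgrp3, Rasgrf2, Rras, Rras2 and Hras had 1 each. Nras, Sos1, Sos2 and Grb2 had none.

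Of 11 genes of RAF kinases and scaffolds, 4 had a peak (36.4%; length-matched 28.3%). Ksr1, a scaffold that holds RAF, MEK and ERK together, had 4, and Braf, a kinase that phosphorylates MEK, had 3 inside the gene. Shoc2 and Tab2 had 1 each, and Araf had none. Of 19 genes of other negative regulators, 7 had a peak (36.8%; length-matched 25.6%). Spred2, which inhibits RAF activation, and Rasa3, which switches off RAS, had 4 each. Ptpn7, a phosphatase of ERK in blood cells, had 2 that both lay outside the gene. Dok1, Dok2, Rasa2 and Spred1 had 1 each. The Sprouty genes Spry1, Spry2 and Spry4 had none.

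Of 11 effector kinase genes, 5 had a peak (45.5%; length-matched 26.7%). Mapkapk3 had 5, and for each of them the nearest gene end was that of its neighbour Cish. Mknk1 and Rps6ka2 had 2 each, and Mapkapk2 and Mapkapk5 had 1 each. Transcription factor and immediate early genes downstream of the kinases had the highest share of the 5 lists, 12 of 20 (60.0%, 36.1 to 80.9; length-matched 20.8%, a ratio of 2.88). All 12 held a peak or had their own end nearest to one, as did 5 of the 7 genes with a peak in the RAS list, 4 of 4 in the RAF list, 5 of 7 negative regulators and 3 of 5 effector kinases. Junb had 4 peaks, the closest 344 bp from the gene, and Ier2 had 3. Of the Junb peaks, 1 lay inside Rnaseh2a and 1 inside Hook2, each nearer to an end of that gene. Fos, Jund, Ier3, Elk4, Etv5 and Mef2a had 2 each. For 1 peak of Jund the nearest gene end was that of Lsm4. Jun had 1 that lay 868 bp from the gene and was 765 bp wide, and Egr1, Egr3 and Mef2c had 1 each. The lists were chosen with earlier results of these data known, and they were not compared with one another by a test.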

How the data were processed

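The deposited peak list gave the start and end of each peak in bp on mm10, with no height, fold enrichment or significance. BWA 0.7.4, Picard and MACS2 appear in the submitters' processing notes with no role stated, and neither the peak threshold nor whether the input served as control was stated. Gene positions came from RefSeq GRCm38.p6, which shares its coordinates with mm10. Protein-coding genes starting below 3000000 bp (not on Y), 108 in all, were left out as misplaced. Every member with a counted peak is named with its number, members with 3 or more peaks or with one within 1 kb of an end are described peak by peak, and the others are named by tier. The members, lists and alternatives were chosen with earlier results of these data known. Counts and shares were computed with Python 3.11.15, numpy 2.4.6, pandas 2.3.3 and scipy 1.17.1, and the counting was tested on simulated peaks. Alternatives were the flank (0, 5 and 50 kb), overlap in place of the midpoint, parts of the list, joined peaks, single assignment and the number of length neighbours (100 and 400). Without replicates or conditions, no test was made. A few single genes without a counted peak are not reported here.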

Additional observations from a re-analysis of the deposited data

How the results depend on the processing

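A count was taken as stable when it stayed within 1.5 times its value. Of 62 alternative values, 42 did, or stayed within their interval. With no flank, 10 members had a peak, with 18 distinct peaks. They were 8 cascade kinases (18.6%, like length 15.2%), all in the upper tiers, and 2 Dusp genes (8.33%, like length 6.71%). Of all protein-coding genes 9.85% had one. Of the 20 MAP2K and MAPK genes 0 had one. A count of 0 of 20 allows up to 15.0%, by a limit of 3 counts in place of the exact interval. The length-matched share of these 20 genes was 13.8%. At 50 kb the counts were 20 cascade kinases, 4 of them MAP2K and MAPK genes, and 60 distinct peaks. In the first 2954 places of the deposited order there were 11 members, 7 cascade kinases, 3 Dusp genes and 16 distinct peaks (members 15.1%, all protein-coding genes 12.2%, like length 13.6%). The share was 16.3% for cascade kinases (like length 15.5%) and 12.5% for Dusp genes (like length 10.5%). The 7 kinases were all of the upper tiers, with 0 of the lower tiers (length-matched 14.8%). In the wider part of the list there were 13 members, 7 cascade kinases and 18 distinct peaks (members 17.8%, all 12.2%, like length 13.4%). Here the share for cascade kinases was 16.3% (like length 15.3%). Again 7 kinases were of the upper and 0 of the lower tiers (length-matched 14.6% for the lower). With each peak given to 1 gene, 1 lower-tier gene had a peak (5.0%, like length 18.3%). These settings use fewer peaks or another window by construction. The share of the upper tiers exceeded that of the lower tiers in all 9 settings, the main one included. All 9 reuse the same peak list, so they give no independent support for this order. The ratio for Dusp genes fell below 1 at 50 kb only (29.2%, length-matched 32%). The length-matched shares ranged from 23.7 to 24.7% for all members over the numbers and kinds of neighbours tried. The tier pairs, and leaving out genes on chromosome X (19 of 70 members with a peak), were added after the data were seen. No paired analysis was possible because there was 1 peak list and no replicate number. Read depth and peak strength are unknown, so a gene without a listed peak is not shown to be unbound.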

Other observations

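A further 9 members had their nearest STAT5 peak between 20 and 50 kb away, beside the 20 with a counted peak. Between these 2 flanks the share of members with a peak rose from 27.4% to 39.7%. For all protein-coding genes, not matched for length, the share rose by a similar amount, from 21.6% to 33.0%. The count of 9 thus does not set the members apart. These 9 members included 5 MAP3K genes, Map3k3, Map3k4, Map3k8, Map3k9 and Map3k12, and also Map2k5, Mapk6, Dusp26 and Mapk1ip1l. The number of MAP3K genes among them was not tested. Map3k8, which encodes TPL2, had 3 peaks within that distance and Map3k4 had 2. Dusp22 had 6 peaks within 50 kb, the most of any member,. Dusp5 had 4. At the other extreme, Map2k4, Dusp19, Dusp9 and Dusp21 had their nearest peaks at 1490, 1360, 1740 and 2550 kb, and Dusp9 and Dusp21 lie on chromosome X, which held 44 of the 5901 peaks.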
